A study of Mus musculus with 32 samples.

Results

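Transcripts of 8 genes of polyamine metabolism were followed in tibialis anterior muscle of *Mtm1* KO and wild-type (WT) mice. The genes were taken by name as *Odc1*, *Oaz1*, *Amd1*, *Amd2*, *Srm*, *Sms*, *Smox* and *Sat1*, and all 8 were found among the 54838 genes of the count table. The mice carried the C57BL6/J background, and the constitutive KO line lacks exon 4 of the X-linked gene *Mtm1*, so that the loss is not restricted to muscle fibres. Groups comprised WT and KO muscle at postnatal day 1 (P1), 14 (P14), 21 (P21) and 35 (P35), with *n*=4 libraries per genotype and age and 32 libraries in all. No treatment or further allele is named for any group. Differentially expressed genes (DEGs) were defined by an adjusted *P*-value under 0.01 in the edgeR quasi-likelihood test and a change of more than 1.5-fold in either direction, and fold changes are given as KO against WT unless stated.

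Polyamines are small positively charged molecules that bind RNA and support translation, growth and ion channel function. Ornithine decarboxylase, encoded by *Odc1*, makes putrescine from ornithine, and antizyme, encoded by *Oaz1*, binds that enzyme and sends it for degradation. S-adenosylmethionine decarboxylase (*Amd1* and its intronless relative *Amd2*) provides the aminopropyl groups with which spermidine synthase (*Srm*) makes spermidine and spermine synthase (*Sms*) makes spermine. Spermine oxidase (*Smox*) turns spermine back into spermidine, whereas spermidine/spermine acetyltransferase (*Sat1*) acetylates polyamines for export or breakdown. In skeletal muscle these enzymes are known to respond to growth and disuse.

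Library totals ranged from 49321035 to 85631408 counts. The targeted gene was checked first. *Mtm1* stood at 20.7 to 24.9 counts-per-million (CPM, scaled by TMM) in WT and at 3.32 to 3.95 CPM in KO libraries at P35, with log2 fold changes of -2.34 at P14, -2.71 at P21 and -2.56 at P35. At P1 it was 5.26 to 6.02 CPM in WT, against 2.32, 2.40, 2.45 and 3.91 CPM in KO, and the log2 fold change of -0.98 missed the threshold (adjusted *P*=0.0668), although the libraries did not overlap. All 12 markers of skeletal muscle fibres were detected in every group. *Xist* was at most 0.365 CPM and the Y-linked *Ddx3y* at least 50.9 CPM in all libraries. The table describes whole muscle, in which fewer cells of a type and less RNA per cell cannot be told apart.

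*Amd1* and *Amd2* are near copies of each other, so the sequences are given before the values. *Amd1* (GRCm38, chromosome 10, 40287458 to 40302186, minus strand) has 8 exons, and *Amd2* (chromosome 10, 35708675 to 35711892, minus strand) has 1 exon. Their coding sequences are 1002 bases long and identical at 1001 of them, which is 99.9%. The single difference was G796C, counted from the A of the start codon with the *Amd1* base first. The 61 coding bases around it, from 766 to 826 in GENCODE M21, are shown with the differing base in capitals.
*Amd1*: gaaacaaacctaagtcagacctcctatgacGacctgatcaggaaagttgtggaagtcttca
*Amd2*: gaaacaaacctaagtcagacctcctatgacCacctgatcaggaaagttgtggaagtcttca

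Of all stretches of 100 bases in the *Amd1* transcript, 73.2% also occurred in *Amd2*, and 72.9% of those in *Amd2* also occurred in *Amd1*. *Amd1* took 96.6% to 98.7% of the counts of the Amd family in each library and *Amd2* took 0.413% to 1.62%. The *Amd2* values are therefore uncertain, because a small share of reads assigned to the wrong copy would make up most of its count. Adding *Amd2* to *Amd1* before the fit left the log2 fold change of *Amd1* at P35 at -2.43.

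Promoters are shown for *Amd1* and *Smox*, which were lower in KO than in WT at P35, and for *Odc1* and *Sat1*, which were higher. The windows were thus picked by result, and that of *Amd2*, which was also lower in KO, is not shown. RefSeq windows of GRCm38.p6 matched 7 of the 8 members, and *Srm* was not matched. Each line gives the 250 bases before the RefSeq transcript start, 5′ to 3′ on the strand of the gene, with matches to the GC box GGGCGG on either strand in capitals. In GENCODE M21 *Smox* starts at base 131491496 and *Odc1* at 17544794, so the *Smox* window lies inside that gene and the *Odc1* window partly so.
*Amd1*, chr10:40302189-40302438, minus strand: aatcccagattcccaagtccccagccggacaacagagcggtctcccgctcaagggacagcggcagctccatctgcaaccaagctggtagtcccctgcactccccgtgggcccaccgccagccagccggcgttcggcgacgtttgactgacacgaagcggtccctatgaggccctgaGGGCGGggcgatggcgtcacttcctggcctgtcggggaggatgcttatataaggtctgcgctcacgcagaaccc
*Smox*, chr2:131491612-131491861, plus strand: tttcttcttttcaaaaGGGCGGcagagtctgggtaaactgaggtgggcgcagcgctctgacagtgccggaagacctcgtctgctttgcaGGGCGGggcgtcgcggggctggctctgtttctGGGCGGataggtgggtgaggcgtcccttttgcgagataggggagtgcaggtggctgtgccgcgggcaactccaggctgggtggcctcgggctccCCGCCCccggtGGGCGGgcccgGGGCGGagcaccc
*Odc1*, chr12:17544623-17544872, plus strand: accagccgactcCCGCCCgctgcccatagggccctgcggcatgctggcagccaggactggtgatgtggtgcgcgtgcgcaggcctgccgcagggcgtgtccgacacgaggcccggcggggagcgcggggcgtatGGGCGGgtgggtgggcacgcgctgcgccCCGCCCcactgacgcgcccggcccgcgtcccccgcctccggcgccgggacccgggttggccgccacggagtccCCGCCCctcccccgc
*Sat1*, chrX:155216450-155216699, minus strand: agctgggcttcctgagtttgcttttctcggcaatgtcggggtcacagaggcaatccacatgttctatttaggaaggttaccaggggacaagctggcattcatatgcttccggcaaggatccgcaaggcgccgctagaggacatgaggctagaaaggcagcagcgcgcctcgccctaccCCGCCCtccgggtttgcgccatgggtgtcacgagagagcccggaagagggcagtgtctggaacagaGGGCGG

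The GC box matched 1 time in *Amd1*, 6 times in *Smox*, 4 times in *Odc1* and 2 times in *Sat1*, and 32.7% of the 32851 promoter windows in the table held at least 1 match. The E-box CACGTG, the site bound by MYC and MAX, matched none of these 4 windows and occurred in 6.02% of all windows. GC content was 64.4% in *Amd1*, 68% in *Smox*, 80% in *Odc1* and 59.6% in *Sat1*, beside a median of 52.4% over all windows. Of the windows not shown, *Amd2* (37.6% GC) and *Oaz1* (58%) held 0 GC box matches. *Sms* held 4 in window 1 and 0 in window 2. These matches describe the letters of the windows and say nothing about binding.

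The members were not DEGs at P1, P14 or P21, and at P35 5 of the 8 were. At P35 transcripts of *Amd1*, *Amd2* and *Smox* were lower and those of *Odc1* and *Sat1* higher in KO than in WT muscle. *Oaz1*, *Sms* and *Srm* did not meet both thresholds. Within KO muscle the mean at P35 over that at P21 was 1.04 for *Amd1*, 1.07 for *Amd2* and 1.31 for *Smox*. In WT muscle these ratios were 4.12, 4.14 and 5.17. Among the 15595 genes tested at P35, 16% were DEGs, with 8.49% higher and 7.52% lower, so 5 of 8 compares with 16%. The members were chosen with earlier results of these data known. *Amd1* and *Amd2* share reads, so counts that include both, here and below, are not counts of independent members. WT and KO libraries did not overlap for the same 5 members at P35, against 39.6% of all genes. At P21 0 of 8 members were DEGs by edgeR and by DESeq2, against 4.67% of 15179 genes by edgeR. The share of genes called by DESeq2 was not computed, here and below. By edgeR 6 of 8 had an unadjusted *P*-value under 0.05 (35.1% of genes). At that age 4 members had an adjusted *P*-value under 0.05 with no limit on the fold (21% of genes) and 1 had one under 0.01 (8.13% of genes). The libraries did not overlap at P21 for *Amd1*, *Odc1* and *Oaz1* (24.7% of genes). At P14 0 of 8 were DEGs by either tool (0.0318% of 15728 genes), with 1 unadjusted *P*-value under 0.05 (6.82% of genes), and at P1 0 of 8 were DEGs by either tool (0.0442% of 18100 genes), with 2 (10.9% of genes). The genotypes did not overlap for *Odc1* at P14 (4.84% of genes) and for *Srm* at P1 (8.62% of genes). The median log2 fold change of the 8 members was 0.34 at P35 and 0.25 at P21, beside 0.04 and 0.01 over all genes tested. Scaling by library totals in place of TMM moved the median of all genes by 0.40 at P35 and 0.19 at P21. All 8 members were then DEGs at P35, 5 higher and 3 lower in place of 2 and 3, with *Sms* at 0.87, *Oaz1* at 0.89 and *Srm* at 0.62 before that shift is taken off, and *Odc1* (0.74) and *Sms* (0.61) were DEGs at P21. The share of all genes called with library totals was not computed. Counts with that scaling, here and below, therefore cannot be set beside it and are not results about the members.

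**Figure D1:**
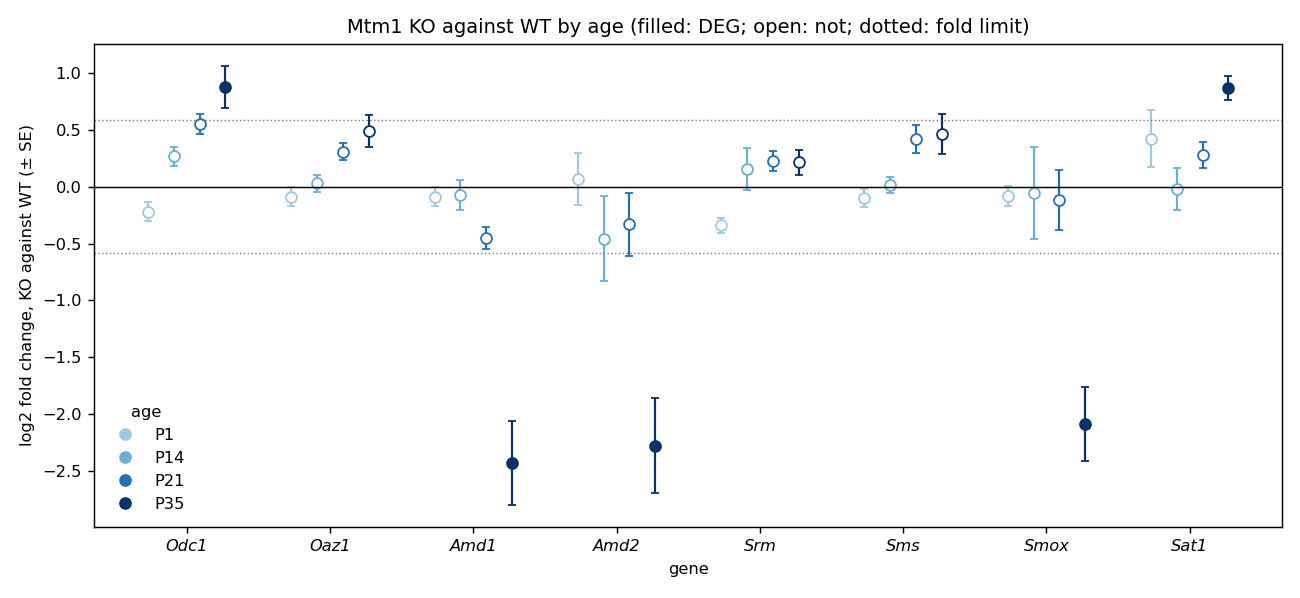
Log2 fold change of KO against WT for each of the 8 genes at P1, P14, P21 and P35 (points, with bars of ± SE from edgeR). Filled points are DEGs and lie only at P35, with *Amd1* at -2.43, *Amd2* at -2.28 and *Smox* at -2.09 below zero and *Odc1* at 0.87 and *Sat1* at 0.87 above it.

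*Amd1*, which encodes the decarboxylase that supplies the aminopropyl groups, climbed with age in WT muscle and stayed near its P21 level in KO muscle. At P35 its level was 769, 666, 211 and 697 CPM in WT, against 102, 73.4, 127 and 126 CPM in KO. The genotypes did not overlap, but WT replicate 3 lay well below the other 3 WT libraries. Mean levels were 586 ± 254 CPM (SD, *n*=4) in WT and 107 ± 25.3 CPM (SD, *n*=4) in KO, a ratio of WT over KO of 5.48, and the log2 fold change was -2.43 (SE 0.366, adjusted *P*=0.000889). Without WT replicate 3 it was -2.71 (adjusted *P*=0.00011). At P21 it was 156, 146, 115 and 151 CPM in WT, against 103, 101, 115 and 92.4 CPM in KO, so the highest KO library lay just under the lowest WT library. The log2 fold change of -0.45 at P21 (SE 0.0989, adjusted *P*=0.0121) missed both limits. At P14 the levels ran from 59.2 to 77.1 CPM in WT and from 54.6 to 78.6 CPM in KO (log2 fold change -0.08, adjusted *P*=0.976), and at P1 from 24.5 to 30.6 CPM and from 23.7 to 27.3 CPM (-0.09, adjusted *P*=0.722). Both genotypes overlapped at these early ages.

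**Figure D2:**
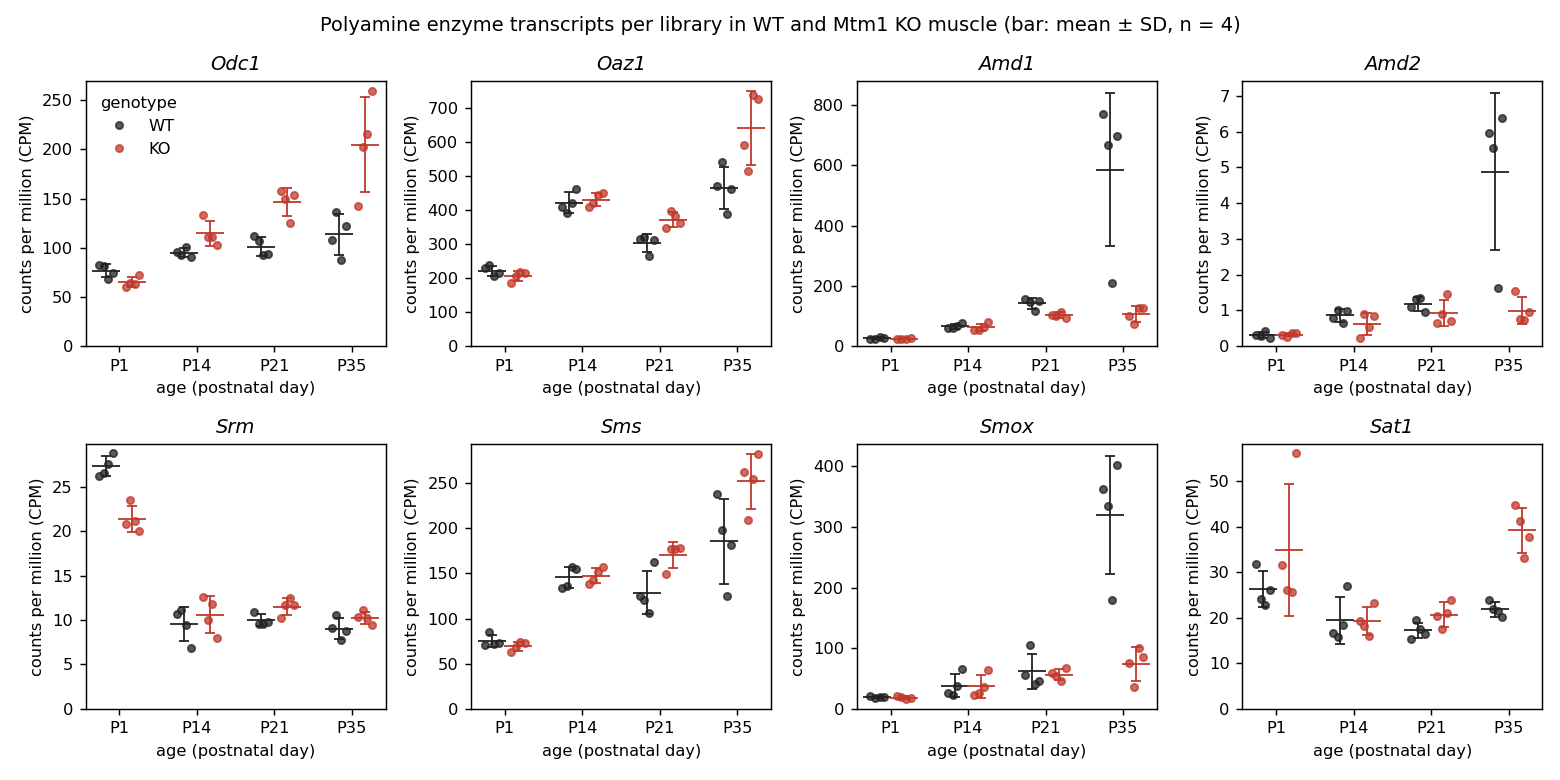
TMM-scaled CPM of each gene (a panel for each gene, vertical axes from 0) against age, with a point for each library and a bar for the mean ± SD (*n*=4) of WT (black) and KO (red). *Amd1*, *Amd2* and *Smox* separate at P35 with WT replicate 3 as the lowest WT point in each (211, 1.64 and 180 CPM), and KO libraries lie above WT for *Odc1* and *Sat1*.

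*Amd2*, the intronless copy, was counted at low levels. At P35 it stood at 5.96, 5.55, 1.64 and 6.39 CPM in WT and at 1.54, 0.767, 0.72 and 0.944 CPM in KO. WT replicate 3 again lay apart from the other WT libraries and just above the highest KO library. The log2 fold change was -2.28 (SE 0.418, adjusted *P*=0.00238). At P21 (-0.33, adjusted *P*=0.429), P14 (-0.46, adjusted *P*=0.928) and P1 (0.07, adjusted *P*=0.92) the genotypes overlapped. Of the 5 Amd pseudogenes in the table, 3 had no count in any library, *Amd-ps4* reached at most 1.07 counts and *Amd-ps3* ranged from 17.2 to 409 counts. Within the sequence of *Amd-ps3*, 89% of stretches of 100 bases also occurred in *Amd1*.

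*Smox*, the oxidase that returns spermine to spermidine, showed the same order of levels at P35. It was counted at 362, 335, 180 and 402 CPM in WT, against 75.0, 35.9, 100.1 and 85.2 CPM in KO. No KO library reached the lowest WT library, which was again replicate 3. Means were 320 ± 97.4 CPM (SD, *n*=4) and 74.0 ± 27.4 CPM (SD, *n*=4), a ratio of WT over KO of 4.32, and the test gave -2.09 on the log2 scale (SE 0.327, adjusted *P*=0.00108). Without WT replicate 3 it was -2.29 (adjusted *P*=0.0009). At P21 the WT libraries spread from 41.4 to 104 CPM and covered all 4 KO libraries, at 46.3 to 66.9 CPM (log2 fold change -0.12, adjusted *P*=0.785). At P14 replicate 4 was the highest library of each genotype, at 66.2 CPM in WT and 64.0 CPM in KO, whereas the other 6 libraries lay between 22.1 and 37.0 CPM (log2 fold change -0.05, adjusted *P*=0.998). At P1 the range was 18.3 to 21.3 CPM in WT and 16.3 to 20.4 CPM in KO (-0.08, adjusted *P*=0.752).

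*Odc1*, the entry enzyme of the pathway, differed in the other direction from *Amd1*. At P35 it stood at 108, 136, 87.8 and 122 CPM in WT and at 142, 203, 215 and 260 CPM in KO. All 4 KO libraries lay above the highest WT library, by a small margin for KO replicate 1. The log2 fold change was 0.87 (SE 0.186, adjusted *P*=0.00492). This call was lost when any of 6 of the 8 libraries was left out (WT replicates 1, 3 and 4 and KO replicates 2, 3 and 4), with adjusted *P*-values of 0.0112 to 0.0168 and log2 fold changes of 0.73 to 0.91, and it stood without WT replicate 2 or KO replicate 1. At P21 it was 111, 106, 92.1 and 93.4 CPM in WT, against 157, 150.1, 125 and 154 CPM in KO. They did not overlap, and the log2 fold change of 0.55 (SE 0.0874, adjusted *P*=0.00303) passed the limit on P but not that on the fold. Without KO replicate 3 it was 0.62 (adjusted *P*=0.00211) and met both. At P14 the KO libraries, from 103 to 133 CPM, lay just above the WT libraries, from 91.0 to 101 CPM (log2 fold change 0.27, adjusted *P*=0.595). At P1 the KO mean was the lower one, 65.1 ± 5.42 CPM against 76.6 ± 6.44 CPM (SD, *n*=4 each), with overlapping libraries (log2 fold change -0.22, adjusted *P*=0.391).

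*Oaz1*, the antizyme that restrains ornithine decarboxylase, was the most abundant member per kb of exon in every group. At P35 it stood at 471, 542, 388 and 462 CPM in WT and at 592, 515, 738 and 729 CPM in KO, so that WT replicate 2 exceeded KO replicate 2. The log2 fold change of 0.49 (SE 0.14, adjusted *P*=0.0198) did not pass. At P21 the libraries did not overlap, with 266 to 322 CPM in WT and 349 to 397 CPM in KO, and the log2 fold change of 0.31 (SE 0.0776, adjusted *P*=0.022) did not pass either. Values at P14 (0.03, adjusted *P*=0.987) and P1 (-0.09, adjusted *P*=0.716) were close to zero with overlapping libraries.

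*Sat1*, the acetyltransferase that leads polyamines to export, had the smallest adjusted *P*-value of the members at P35. It stood at 24.0, 21.9, 21.6 and 20.1 CPM in WT and at 44.7, 41.3, 33.1 and 37.8 CPM in KO. The lowest KO library lay well above the highest WT library, and WT replicate 3 did not stand apart. The mean ratio of KO over WT was 1.79 and the log2 fold change 0.87 (SE 0.103, adjusted *P*=0.000301). Leaving out each library in turn kept it between 0.79 and 0.93. At P21 the groups overlapped, at 15.4 to 19.4 CPM in WT and 17.5 to 24.0 CPM in KO (0.28, adjusted *P*=0.106), and at P14 the log2 fold change was -0.02 (adjusted *P*=0.999). At P1 KO replicate 4 held 56.2 CPM whereas the other 7 libraries lay between 22.9 and 31.9 CPM (log2 fold change 0.42, adjusted *P*=0.573). Leaving that library out gave 0.09 (adjusted *P*=0.804). It also had the lowest summed level of muscle fibre markers at P1, 27587 CPM against 44768 to 58103 CPM in the other KO libraries, and the highest *Mtm1* of the KO libraries at that age; the part of this in the *Sat1* value was not tested.

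The 2 aminopropyl transferases were not DEGs at any age. *Sms*, which makes spermine, stood at 238, 198, 125 and 181 CPM in WT and at 262, 209, 254 and 282 CPM in KO at P35. The libraries overlapped and the log2 fold change was 0.46 (SE 0.177, adjusted *P*=0.0607), or 0.31 without WT replicate 3. At P21 the log2 fold change of 0.42 (SE 0.125, adjusted *P*=0.0412) also missed the threshold, with WT replicate 4 at 163 CPM above KO replicate 1 at 149 CPM. At P14 (0.02, adjusted *P*=0.996) and P1 (-0.10, adjusted *P*=0.664) the values were close to zero. *Srm*, which makes spermidine, was counted at 7.74 to 10.6 CPM in WT and 9.44 to 11.1 CPM in KO at P35 (0.21, SE 0.109, adjusted *P*=0.145). Its log2 fold changes were 0.22 at P21 (adjusted *P*=0.105) and 0.15 at P14 (adjusted *P*=0.961), with overlapping libraries. At P1 all 4 KO libraries, from 20.02 to 23.5 CPM, lay below the WT libraries, from 26.3 to 28.7 CPM, and the log2 fold change of -0.34 (SE 0.0636, adjusted *P*=0.0785) missed the threshold.

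In WT muscle *Amd1* rose at each of the 3 steps in age and *Smox* rose at the last of them. From P1 to P14, *Amd1* (log2 fold change 1.27, adjusted *P*=2.9e-06), *Amd2* (1.45, adjusted *P*=0.000321), *Sms* (0.95, adjusted *P*=4.64e-06) and *Oaz1* (0.92, adjusted *P*=4.49e-06) rose and *Srm* fell (-1.53, adjusted *P*=4.17e-06), so that 5 of 8 were DEGs against 55.1% of genes (24.7% higher, 30.4% lower). *Smox* (0.94, adjusted *P*=0.0126), *Odc1* (0.30, adjusted *P*=0.0033) and *Sat1* (-0.45, adjusted *P*=0.0385) did not meet both limits. All 8 had an adjusted *P*-value under 0.05 in this step, as did 79.4% of genes. *Smox* was called in this step by DESeq2 (0.96, adjusted *P*=0.00135), with no filter on low counts (0.91, adjusted *P*=0.00755) and without WT P14 replicate 1 (1.09, adjusted *P*=0.00756) or 2 (1.12, adjusted *P*=0.00377), and *Sat1* was without WT P14 replicate 4 (-0.64, adjusted *P*=0.000855). Scaling by library totals in place of TMM moved the median of all genes by -0.77 in this step, to -0.85, and then called no member higher and 2 lower, with *Amd1* at 0.49 and *Odc1* turned to -0.47. From P14 to P21 *Amd1* alone was a DEG (1.10, adjusted *P*=0.000563), 1 of 8 against 5.53% of genes. *Oaz1* passed on P but not on the fold in that step (-0.49, adjusted *P*=0.00458), and the other 6 members lay between -0.19 (*Sms*) and 0.68 (*Smox*) with adjusted *P*-values of 0.138 or more. With no limit on the fold, 2 members thus passed at 0.01 (9.93% of genes) and the same 2 at 0.05 (25.6% of genes).

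Marker sums moved with age as well. From P1 to P14 in WT, the 12 muscle fibre markers went from 45702 to 59475 CPM to 147704 to 182880 CPM. The 12 keratinocyte markers went from 2354 to 7396 CPM to 14.8 to 20.7 CPM, and the 6 fibro-adipogenic markers from 12082 to 16140 CPM to 4074 to 8044 CPM. Of the other lists of cell type markers, only the adipocyte sum overlapped between these ages. From P14 to P21 the erythroid sum went from 442 to 755 CPM to 3170 to 4350 CPM, and the satellite cell sum from 91.2 to 154 CPM to 61.0 to 86.4 CPM. From P21 to P35 the erythroid sum alone did not overlap, at 189 to 584 CPM by P35. The part of these sums in the age steps of the members was not tested.

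From P21 to P35 *Amd1* (2.03, SE 0.338, adjusted *P*=0.00659), *Amd2* (2.03, SE 0.38, adjusted *P*=0.00931), *Smox* (2.35, SE 0.334, adjusted *P*=0.00441) and *Oaz1* (0.60, SE 0.104, adjusted *P*=0.00746) rose in WT muscle, 4 of 8 against 2.45% of genes. *Sms* (0.51, adjusted *P*=0.0909), *Sat1* (0.33, adjusted *P*=0.042), *Odc1* (0.16, adjusted *P*=0.4) and *Srm* (-0.16, adjusted *P*=0.292) did not. These 4 calls lay close to the threshold. All 4 stood without WT P35 replicate 3, but 1 (*Smox*) was left without WT P21 replicate 2 and 0 without any other of the 8 libraries, at adjusted *P*-values of up to 0.0312 and with log2 fold changes for *Amd1* that stayed between 1.87 and 2.31. Over the whole course, the mean level at P35 was 21.7 times that at P1 for *Amd1* in WT and 4.25 times in KO. For *Smox* these ratios were 16.2 and 4.0, and for *Sat1* 0.833 and 1.12. The KO mean of *Sat1* at P1 includes KO replicate 4, at 56.2 CPM against 25.7 to 31.5 CPM in the other KO libraries.

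The difference between KO effects at successive ages was tested as an interaction over all 32 libraries. It uses the same WT libraries as the KO comparisons and the WT steps in age. These results are therefore not independent of each other. From P21 to P35 the KO effect on *Amd1* moved by -1.99 on the log2 scale (SE 0.323, adjusted *P*=0.00121), which was called and compares with 0.463% of 18583 genes. *Smox* (-1.98, SE 0.474, adjusted *P*=0.0243) and *Amd2* (-1.96, SE 0.503, adjusted *P*=0.0365) moved by a similar amount and were not called, so that 3 members had an adjusted *P*-value under 0.05 (2.18% of genes). *Sat1* (0.57, adjusted *P*=0.263), *Odc1* (0.31, adjusted *P*=0.408), *Oaz1* (0.17, adjusted *P*=0.575), *Sms* (0.04, adjusted *P*=0.96) and *Srm* (-0.02, adjusted *P*=0.984) were not called either. Without WT P35 replicate 3 *Amd2* was also called (-2.25, adjusted *P*=0.00487), and without WT P21 replicate 2 *Smox* was (-2.36, adjusted *P*=0.00951). In a fit restricted to the 16 libraries of P21 and P35, the adjusted *P*-value of *Amd1* was 0.0261. No member was called from P1 to P14 (0.0161% of genes; 2 members with an unadjusted *P*-value under 0.05, against 6.46% of genes) or from P14 to P21 (0.425% of genes; 0 such members, against 12.9% of genes), by edgeR or by DESeq2. The member values ran from -0.51 (*Amd2*) to 0.51 (*Srm*) in the first of these steps and from -0.39 (*Amd1*) to 0.39 (*Sms*) in the second.

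WT P35 replicate 3 lay low in most members, and farthest in *Amd1* and *Amd2*. Its log2 CPM minus the mean of the other 3 WT libraries was -1.75 for *Amd1*, which was rank 124 from the lowest among 18583 genes. For *Amd2* the difference was -1.84 (rank 97), for *Smox* -1.02 (rank 464) and for *Sms* -0.71 (rank 915). Most members that were not lower in KO at P35 were low in this library too. *Odc1* was at -0.47 (rank 1598), *Oaz1* at -0.34 (rank 2349) and *Srm* at -0.28 (rank 2856), whereas *Sat1* differed by -0.02 (rank 8475). This library had the lowest summed muscle fibre markers of the WT libraries at P35, 120410 CPM against 141999 to 166295 CPM, and the highest sum of the 6 Schwann cell markers, 598 CPM against 95.8 to 276 CPM. In KO libraries at P35 the muscle fibre sum ranged from 86071 to 108334 CPM and the Schwann sum from 318 to 1277 CPM. The part of these values in the members' levels was not tested. At the same age other marker sums also differed between the genotypes. The 12 keratinocyte markers summed to 15.8 to 17.7 CPM in WT and 45.3 to 61.2 CPM in KO, against 2054 CPM or more in every library at P1. The 10 macrophage markers summed to 117 to 149 CPM in WT and 153 to 226 CPM in KO, the 5 satellite cell markers to 54.5 to 74.9 CPM and 99.3 to 169 CPM, and the 8 endothelial markers to 490 to 763 CPM and 371 to 440 CPM. At P21 the muscle fibre sum was 155628 to 201868 CPM in WT and 137418 to 151466 CPM in KO, the macrophage sum 118 to 141 CPM and 154 to 192 CPM, and the satellite cell sum 61.0 to 86.4 CPM and 97.6 to 122 CPM. The keratinocyte sum at P21 was 12.1 to 16.3 CPM in WT and 40.2 to 50.1 CPM in KO, the endothelial sum 702 to 1029 CPM and 550 to 650 CPM, and the adipocyte sum 440 to 604 CPM and 301 to 380 CPM. The adipocyte sums overlapped at P35. Of the keratinocyte markers, Krt5 and Krt15 had no count in WT and Krt1 and Krt15 none in KO at P21. No other marker of these lists was at 0 throughout a group at P21 or P35. Their part in the KO values of the members was not tested.

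Levels were compared between genes as CPM per kb of merged exons. *Oaz1* was highest in each of the 8 groups and *Amd2* lowest. At P1 *Odc1*, *Srm* and *Sms* followed *Oaz1* in WT, at 22.5 ± 1.89, 17.1 ± 0.705 and 12.5 ± 1.08 CPM per kb (SD, *n*=4), and *Amd1* held rank 6 at 7.63 ± 0.838. By P35 *Amd1* had reached the second place in WT, at 165 ± 71.6 against 182 ± 24.7 CPM per kb for *Oaz1*, and these neighbours overlapped. *Smox* came next in WT at P35, at 82.1 ± 25.0 with some overlap with *Amd1*, above *Odc1* at 33.4 ± 6.10 and *Sms* at 30.9 ± 7.82, which overlapped each other. *Sat1*, at 7.89 ± 0.577, and *Srm*, at 5.64 ± 0.729, followed without overlap. In KO muscle at P35 the order was *Oaz1* (252 ± 42.6), *Odc1* (60.2 ± 14.2), *Sms* (41.9 ± 5.12), *Amd1* (30.2 ± 7.15), *Smox* (19.0 ± 7.04), *Sat1* (14.1 ± 1.79), *Srm* (6.42 ± 0.417) and *Amd2* (0.308 ± 0.117 CPM per kb, SD, *n*=4). Each of *Odc1*, *Sms*, *Amd1* and *Smox* overlapped with the next gene in this order. *Amd1* thus lay above *Odc1* in WT muscle at P35 and below it in KO muscle on this scale.

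**Figure D3:**
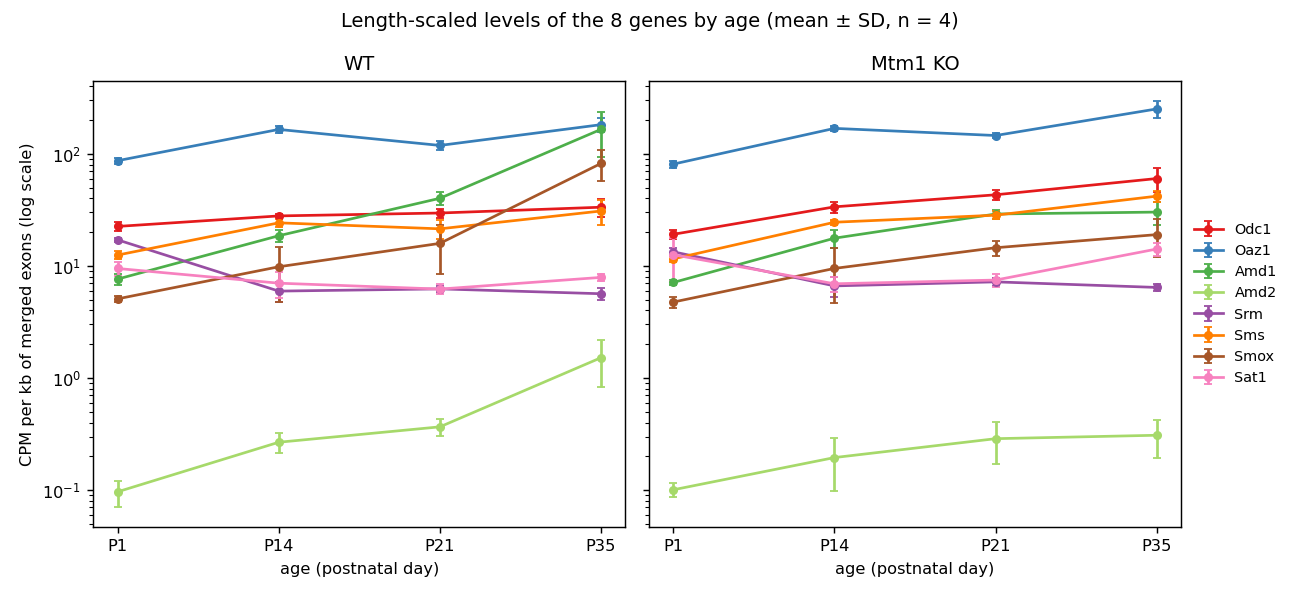
Level of each of the 8 genes as CPM per kb of merged exons (log axis, mean ± SD, *n*=4) against age, in WT (left) and KO (right). *Amd1* and *Smox* climb to 165 and 82.1 CPM per kb at P35 in WT and stand at 30.2 and 19.0 in KO, whereas *Oaz1* is the uppermost and *Amd2* the lowest line in both.

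Of 38 further genes around the pathway, 32 were tested at P35 and 8 were DEGs, 4 higher and 4 lower, or 8 of 32 against 16% of all genes tested. These genes, too, were chosen with earlier results of these data known. The median log2 fold change of the list was -0.05, beside 0.04 over all genes. With no limit on the fold, 13 had an adjusted *P*-value under 0.01 (24.5% of genes) and 15 one under 0.05 (41.4% of genes). Scaled by library totals, which move all genes by the 0.40 given above, 10 were higher and 1 was lower. At P21 32 were tested and 0 were DEGs by edgeR, with 14 at an unadjusted *P*-value under 0.05 (35.1% of genes). DESeq2 called 2, and the share of all genes it called was not computed. At P14 and P1 0 of 33 and 0 of 36 were DEGs by either tool, with 7 at P1 (10.9% of genes) and 1 at P14 (6.82% of genes) at an unadjusted *P*-value under 0.05. Without 1 of the libraries the count at P35 was 5 to 7, and it was lowest (5) without KO replicate 2 or KO replicate 3.

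Among the other regulators, catabolic enzymes and genes of hypusine formation, 1 of 9 tested was a DEG at P35, against 16% of all genes. The median log2 fold change was 0.17, beside 0.04 over all genes. *Azin1*, the antizyme inhibitor that frees ornithine decarboxylase from antizyme, was higher in KO by 0.65 (adjusted *P*=0.0053) and had been 0.62 at P21 (adjusted *P*=0.0135). *Dhps*, which starts the conversion of spermidine into hypusine on the factor eIF5A, was 0.29 higher (adjusted *P*=0.00832), short of the fold limit.

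Of 8 listed genes that supply ornithine and arginine, 5 passed the filter and were tested. They had a median of -0.46 and 3 DEGs, beside a median of 0.04 and 16% DEGs over all genes. *Slc7a2*, a carrier for cationic amino acids, was lower in KO (-1.19, adjusted *P*=0.000365), as was *Oat*, the mitochondrial ornithine aminotransferase (-0.61, adjusted *P*=0.00157). *Gatm*, which uses arginine in the first step of creatine synthesis and releases ornithine, was higher in KO (1.22, adjusted *P*=0.00629). *Slc25a15*, the mitochondrial ornithine carrier, was at -0.46 (adjusted *P*=0.000681), and had been at -0.40 at P21 (adjusted *P*=0.00349), both short of the fold limit.

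In the methionine cycle and salvage pathway, which recycles the by-product of spermidine and spermine synthesis, 2 of 9 tested genes were DEGs, against 16% of all genes. The median was -0.22, beside 0.04 over all genes. *Got1*, the cytosolic aspartate aminotransferase (-0.76, adjusted *P*=0.00178), and *Adi1*, the dioxygenase late in salvage (-0.64, adjusted *P*=0.00114), were lower in KO. The salvage dehydratase *Apip* (-0.41, adjusted *P*=0.00748) and *Mat2b*, a regulatory subunit of S-adenosylmethionine synthesis (-0.38, adjusted *P*=0.00583), were short of the fold limit. The genes for the enzyme that makes S-adenosylmethionine outside the liver, *Mat2a*, and for the phosphorylase *Mtap* did not pass either threshold.

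The 6 tested genes of polyamine transport had a median of 0.07, beside 0.04 over all genes. *Atp13a3*, a transporter of the cell membrane and endosomes, was higher in KO (0.97, adjusted *P*=0.00171), whereas the lysosomal exporter *Atp13a2* was at -0.53 (adjusted *P*=0.00205), short of the fold limit. At P21 *Atp13a3* stood at 0.84 (adjusted *P*=0.0178). Among 3 transcription factors of the MYC network, which is known to regulate *Odc1*, *Myc* was higher in KO at P35 (0.86, adjusted *P*=0.00729). *Max* and *Mxd1* were not DEGs.

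**Figure D4:**
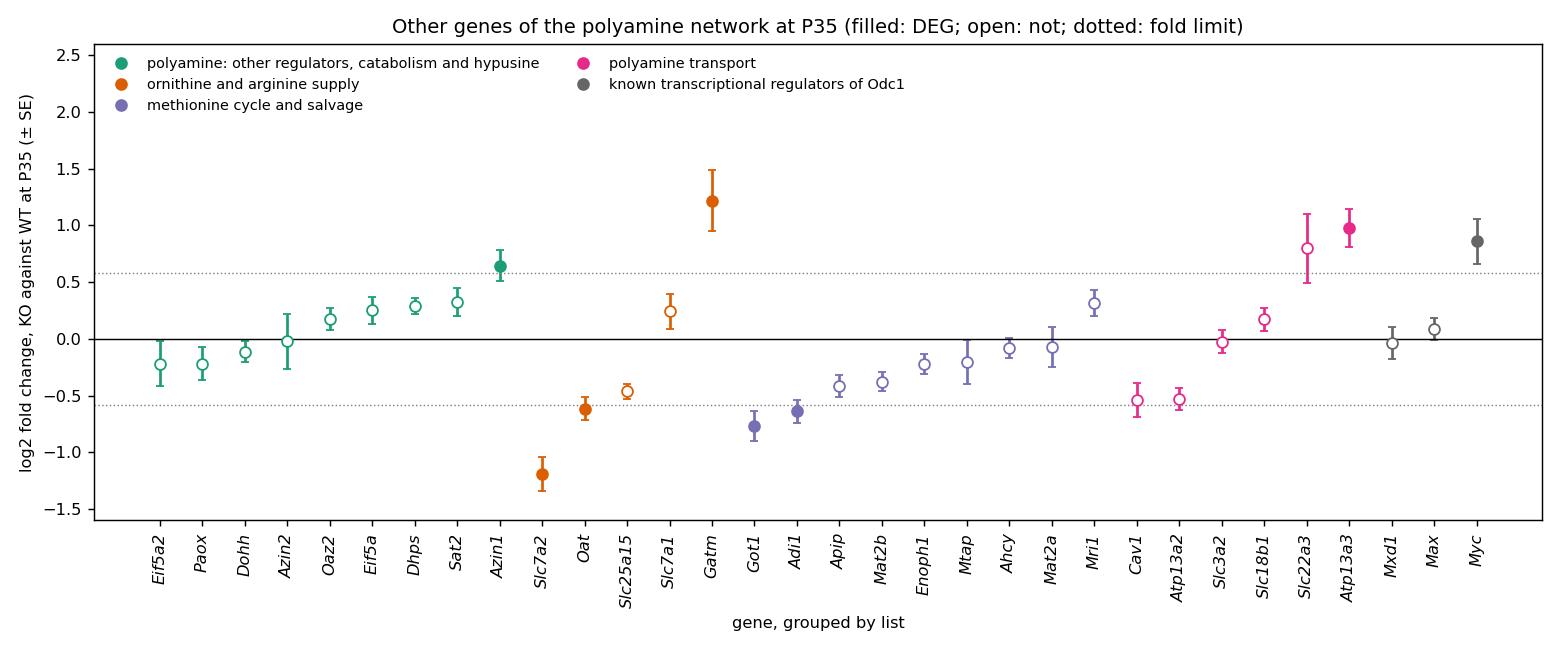
Log2 fold change of KO against WT at P35 (points, bars of ± SE from edgeR) for the 32 tested genes of the wider network, coloured by list. Filled points are the 8 DEGs, from *Slc7a2* at -1.19 to *Gatm* at 1.22, and the dotted lines mark the fold limit.

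The genes whose log2 CPM followed the 3 members with the smallest adjusted *P*-values at P35 most closely were sought among 18568 genes. Over the 32 libraries, which share age and genotype as sources of spread, *Amd1* was followed by *Amd-ps3* (Pearson r of 0.97), *Vkorc1l1* (0.96) and *Parp6* (0.96). *Smox* was followed by *Mylk4* (0.96), *Amd1* itself (0.95) and *Parp6* (0.94). *Sat1* was followed less closely, by *Tmx1*, *Dtx3* and *N4bp2l1* (0.88 each). Among the other members, *Sms* and *Oaz1* had an r of 0.95 and *Odc1* and *Sms* of 0.86, whereas *Srm* ran against *Sms* (-0.78). These are descriptions of 32 libraries that differ mostly in age.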

How the data were processed

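Total RNA of tibialis anterior muscle was enriched for poly(A) RNA, and directional paired-end libraries were sequenced. Per the labels and the methods, the authors aligned reads to GRCm38 with STAR 2.6.1, and the submitters' processing notes name RSEM 1.2.22 and DESeq2. The deposited values are expected counts per gene and library, of which 4.26% were not whole numbers. They were neither scaled nor pooled. The methods name HTSeq as counter, and the strand setting and annotation release are not given in the sources used here. RSEM shares out reads that match several genes, which bears on *Amd1* and *Amd2*. The number of unused value columns was 0.

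Rounded counts were tested at each age with edgeR 4.0.16 under R 4.3.3 (filterByExpr, TMM, glmQLFit and glmQLFTest, two-sided), and *P*-values were adjusted by Benjamini-Hochberg across the genes tested. WT ages were compared in pairs, and differences of KO effects were tested as interactions in 1 fit of 32 libraries at an adjusted *P*-value under 0.01. CPM used TMM factors over 18583 genes, log2 CPM a prior count of 2, and levels per kb the merged exons of GENCODE M21, which gave symbols for 54723 of 54838 genes. Scripts were tested on simulated counts. Totals of 49321035 to 85631408 counts per library set the precision of low genes such as *Amd2*, and counts hold no molecular identifiers. No replicate pair lay within sampling noise. *P*-values measure the spread between these libraries, which may be in part technical, since the sources used here do not say that each came from a separate mouse. The methods list P14, P21 and P35, and P1 comes from the labels.

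The members and lists were chosen with earlier results of these data known, and 1 gene of the lists is not reported here. Named were all 8 members, every gene of the wider lists that was a DEG at P21 or P35 and others needed to show a group, *Mtm1*, and the 3 genes most like each of 3 members. Replicate numbers could be read as pairs only at P14, where WT and KO libraries of 1 number deviated together with correlations of 0.19 to 0.588. These were above 0.1 in all 4 pairs, although WT replicate 2 correlated best with a KO library of another number. The pairing comes from this check, not from the labels. Alternatives were RLE size factors, library totals, no filter, at least 10 counts in every library, counts not rounded, DESeq2 1.42.0, adjusted deviances, other thresholds, summed Amd counts, the replicate block, other sets of libraries and leaving out each library. Summing the pseudogenes with *Amd1* and a block within age were added after seeing the data. Figures were made with python 3.11.15 and matplotlib 3.10.9.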

Additional observations from a re-analysis of the deposited data

Results flagged for a closer look

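Among 72 groups of 4 libraries (*Mtm1* and the 8 members), 3 held a library whose gap to its nearest neighbour took most of the range of its group, and chance gives about 5% of groups. *Mtm1* stood at 3.91 CPM in KO P1 replicate 4, above the other KO libraries of that age. *Sms* stood at 149 CPM in KO P21 replicate 1, below its group. *Srm* stood at 10.96 CPM in WT P21 replicate 1, above its group. WT P35 replicate 3 stayed just under the limit of the test, with a gap of 0.816 of the range for *Amd1* and 0.823 for *Amd2*.

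The KO effect differed between ages by an interaction test for 1 member and 2 genes of the wider lists. That on *Amd1* was -1.99 (log2) from P21 to P35 (adjusted *P*=0.00121), and it missed the threshold in the 16 libraries of both ages (adjusted *P*=0.0261) and, narrowly, with a replicate block within age (adjusted *P*=0.01001). *Slc25a15*, the mitochondrial ornithine carrier, moved by -0.39 from P14 to P21 (adjusted *P*=0.00874), with KO effects of -0.02 and -0.40. *Atp13a2*, the lysosomal polyamine exporter, moved by -0.56 from P21 to P35 (adjusted *P*=0.005), with KO effects of 0.02 and -0.53.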

How the results depend on the processing

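Over all alternatives, 275 counts of calls stayed within 1.5 times their main value, 22 were higher and 13 lower, and of the single member values 1721 kept direction and call, 33 gained the call, 43 lost it and 55 turned sign. The calls of *Amd1*, *Amd2*, *Smox* and *Sat1* in KO versus WT at P35 were kept in each alternative that gave them a value. Scaling by library totals gave 2 members called at P21, 8 at P35, 2 in WT from P1 to P14, 2 from P14 to P21 and 2 from P21 to P35, and 3 wider genes at P21. With no limit on the fold, an adjusted *P*-value under 0.05 gave 4 members at P21, 8 from P1 to P14 (79.4% of genes), 2 from P14 to P21 (25.6%), 3 in the interaction from P21 to P35 (2.18%), and 9 wider genes at P21 and 15 at P35; one under 0.01 gave 1 member at P21, 2 from P14 to P21 (9.93%), and 2 and 13 wider genes at P21 and P35. DESeq2 gave 3 members in that interaction and 2 wider genes at P21. The 16 libraries of both ages gave 0 members, no filter 2 wider genes at P21 and all 32 libraries in 1 fit 1. The share of all genes called was computed for the main fit alone. Counts from other fits, here and below, cannot be set beside it and are not results about the members or lists.

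Same-numbered libraries deviated together in every pair at P14 but not at P1 (correlations -0.322 to -0.00176), P21 (-0.00789 to 0.187) or P35 (-0.0802 to 0.168). Replicate 1 at P21 (0.187) and replicates 1 (0.168) and 4 (0.14) at P35 were above 0.1. Low correlations cannot show that libraries share only a number. The replicate block gave 1 wider gene at P21 and 2 members from P21 to P35 in WT, and changed no other count by over 1.5 times. With it *Sat1* at P14 turned to 0.000683. With a block within age the interaction of *Smox* from P14 to P21 turned to 0.00961, that of *Amd1* from P21 to P35 lost its call (-1.89, adjusted *P*=0.01001) and that of *Smox* gained one (-2.11, adjusted *P*=0.0064).

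Leaving out 1 library gave 0 to 1 members at P21, 0 to 4 from P21 to P35 in WT and 1 to 2 in the interaction from P21 to P35, and 5 to 7 wider genes at P35. None of the values that turned sign had passed the limit on P, apart from *Odc1* in WT from P1 to P14 (0.30, adjusted *P*=0.0033), which passed it in both directions (adjusted *P*=0.000601 with library totals). With library totals these were, at P14, *Amd1* (0.00631), *Smox* (0.0324) and *Sat1* (0.0827), at P21 *Smox* (0.0725), in WT *Odc1* from P1 to P14 (-0.468) and from P14 to P21 (-0.0887) and *Srm* from P14 to P21 (-0.125), and in interactions *Smox* from P14 to P21 (0.0401) and *Srm* from P21 to P35 (0.206; 0.0164 with no filter and 0.00586 with at least 10 counts). With 1 library left out, the log2 values at P14 ranged from -0.208 to 0.00743 for *Amd1*, -0.458 to 0.347 for *Smox*, -0.129 to 0.18 for *Sat1*, -0.00364 to 0.0757 for *Oaz1* and -0.0207 to 0.0475 for *Sms*. *Smox* at P21 ranged from -0.281 to 0.257 and *Amd2* at P1 from -0.0487 to 0.256. In WT from P14 to P21, *Sat1* ranged from -0.278 to 0.0323 and *Srm* from -0.0625 to 0.132. Interactions ranged from -0.101 to 0.111 (*Amd1*) and -0.356 to 0.445 (*Smox*) from P1 to P14, from -0.199 to 0.359 (*Amd2*), -0.481 to 0.320 (*Smox*) and -0.0585 to 0.186 (*Srm*) from P14 to P21, and from -0.115 to 0.177 (*Sms*) and -0.0895 to 0.0620 (*Srm*) from P21 to P35. Apart from the choices named above, the cause of these changes was not tested. *Amd2*, at 0.229 to 6.39 CPM over all libraries, is limited by depth and by the reads it shares with *Amd1*.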
